A study of Saccharomyces cerevisiae with 116 samples.

Results

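The genes that yeast cells use to stick to a mating partner and fuse with it were followed through every state, stress and time of the series. They are 10 open reading frames (ORFs) chosen by name and not by their values: AGA1 (YNR044W), AGA2 (YGL032C), FIG2 (YCR089W), FUS1 (YCL027W), FIG1 (YBR040W), PRM1 (YNL279W), PRM2 (YIL037C), PRM6 (YML047C, also called KCH2), PRM3 (YPL192C) and KAR4 (YCL055W). They make up 10 of the 6704 ORFs that the tables of the series share. All 10 were found in each table, and all 10 passed the filter on low counts in every whole-cell comparison. That filter ran over all libraries of a fit at once. Passing it therefore does not show that a gene was measurable in both groups of a comparison.

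The study asked how much of the yeast stress response depends on how fast the cells grow, by stressing cells whose growth or division had been altered beforehand. All libraries come from Saccharomyces cerevisiae BY4741, a laboratory haploid of mating type a, grown for 7 to 10 generations in rich YPD medium. The altered states were alpha factor (25 uM for 2 h), the peptide pheromone of alpha cells that holds a cells in G1, nocodazole (10 ug/ml for 2 h, and a set labelled 3.5 h), which blocks mitosis by depolymerising microtubules, and cycloheximide, an inhibitor of translation, labelled 0.1 and 0.2 with no unit. Asynchronous cells, with no drug, were their controls. Cells were stressed with salt (NaCl, with doses of 0.5N and 0.7N labelled in some libraries) or heat (33c and 37c labelled in some). Libraries labelled T0 were the unstressed controls, and later labels (T10 to T60) are read here as minutes. The alpha factor and nocodazole series also hold libraries labelled t0', whose meaning the labels do not give.

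Whole-cell RNA sequencing covered 66 libraries. Of these, 16 held Schizosaccharomyces pombe cells added as a spike-in (alpha factor and asynchronous, T30 and T0, 3 replicates each, and single cycloheximide libraries), and 50 had no spike-in. A further 50 libraries are the inputs and fractions of 5 polysome gradients. S. cerevisiae counts ranged from 1555271 to 5469230 in the spiked libraries (median 2617628), from 1794997 to 7043273 in the unspiked ones (median 3960115) and from 365088 to 5081617 in the gradient ones (median 1653398.5). Levels are counts per 1e6 S. cerevisiae ORF counts (CPM), which can be compared for 1 gene between libraries but not between genes, whose lengths differ. Nothing in the labels says whether replicates were separate cultures, so the p-values measure the spread between these libraries.

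Alpha factor binds a receptor on a cells and, through a mitogen-activated protein kinase cascade, activates the transcription factor Ste12, which switches on the genes for mating. The cells stop in G1, coat themselves with agglutinin, grow towards the source of pheromone, dissolve the wall between the partners, and join first their plasma membranes and then their nuclei. AGA1, AGA2 and FIG2 serve adhesion, FUS1, FIG1 and PRM1 serve growth and fusion at the contact site, PRM3 acts in nuclear fusion, and KAR4 is a transcription factor that switches on genes for nuclear fusion.

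All 10 genes were high in the alpha factor libraries, those labelled t0' aside, and low in the others. Together they took 1.28%, 1.17% and 1.57% of all counts in the spiked alpha factor libraries at T0, against 0.0128%, 0.0145% and 0.0161% in asynchronous cells at T0. Bulk RNA cannot tell fewer expressing cells from less RNA in each cell. Over the whole-cell libraries, the lowest of the 22 alpha factor libraries stood above the highest of the 44 others for each of the 10 genes. The margin was narrowest for AGA2, 187.6 CPM against 89.6 CPM or 2.09-fold, and widest for FIG1, 332 CPM against 20.3 CPM or 16.4-fold. How many genes outside the 10 split in this way was not counted. In the 44 others FIG1 had 3 counts or fewer in 25, PRM2 in 7, PRM3 in 30 and PRM6 in 36. The low-count filter took in the alpha factor libraries, so these genes were also tested between groups where they are near 0.

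In the spiked libraries at T0 alpha factor was called above asynchronous cells for all 10 genes (quasi-likelihood test of edgeR, adjusted p under 0.05 by Benjamini-Hochberg), where 8.60% of the 5744 genes tested were called higher. Their median log2 change was 7.95, against -0.01 over all genes. All 10 were also called higher with the S. pombe counts as library sizes, where 2.38% of genes were, with DESeq2, and without any 1 library.

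**Figure D1:**
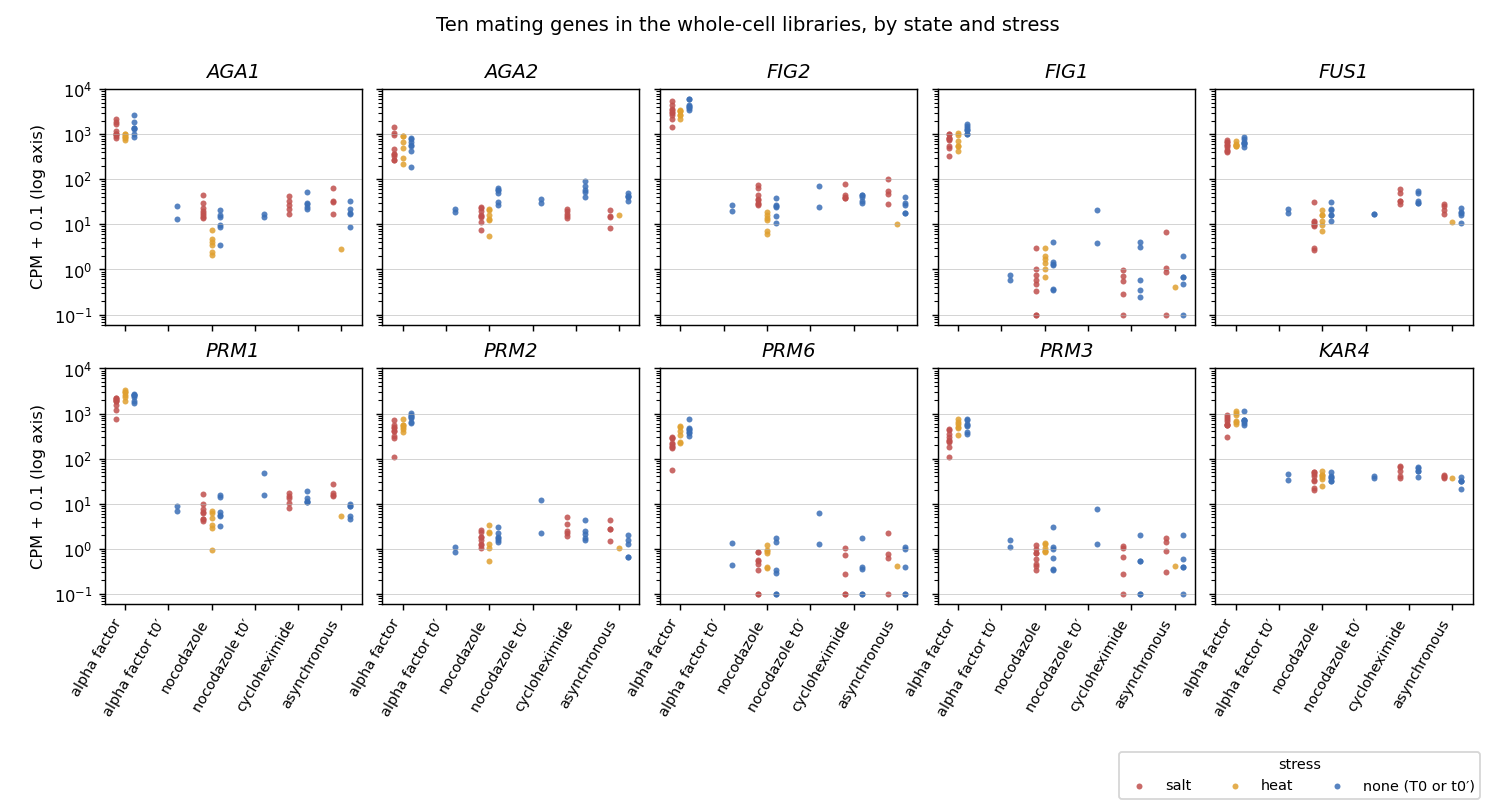
Each panel plots 1 gene's CPM plus 0.1 on a log axis in the 66 whole-cell libraries, by state. Colours separate salt libraries, heat libraries and those labelled T0 or t0'. The alpha factor libraries sit above all others in every panel, with a gap of 2.09-fold for AGA2 and 16.4-fold for FIG1, and points at the lower edge of a panel are libraries with no count.

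The adhesion genes differed in how far they rose. AGA1, which anchors the a-agglutinin in the cell wall, stood at 1039, 1406 and 2664 CPM in alpha factor against 16.9, 17.7 and 22.4 CPM in asynchronous cells. Its log2 change was 6.50 ± 0.48 (standard error, SE, edgeR adjusted p = 1.50e-06). AGA2, the small subunit that binds the agglutinin of alpha cells, stood at 549.9, 828 and 794 CPM in alpha factor against 42.1, 41.5 and 41.96 CPM in asynchronous cells. The groups were far apart for both subunits, but AGA2 changed by 4.14 ± 0.26 (adjusted p = 5.58e-07), the smallest change of the 10. FIG2, a wall adhesin of mating cells related to AGA1, stood at 4045, 4305 and 5944 CPM in alpha factor against 17.5, 29.99 and 26.8 CPM in asynchronous cells. Its groups were as far apart, with a change of 7.61 ± 0.43 (adjusted p = 1.93e-07).

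The genes that act at the site of contact differed in whether they had RNA without the pheromone. FUS1, a membrane protein of the mating projection, stood at 692, 641 and 787 CPM in alpha factor against 18.9, 17.6 and 22.9 CPM in asynchronous cells, a change of 5.19 ± 0.28 (adjusted p = 1.50e-07). PRM1, which acts in plasma membrane fusion, stood at 2549, 1692 and 1916 CPM in alpha factor against 9.604, 5.302 and 4.39 CPM in asynchronous cells, a change of 8.30 ± 0.50 (adjusted p = 2.96e-07). FUS1 and PRM1 were thus measurable in every asynchronous library. FIG1, a membrane protein needed for calcium entry during mating, stood at 1655, 1039.6 and 1254 CPM in alpha factor and had 2, 2 and 0 counts in asynchronous cells. Its fitted change of 11.71 ± 0.64 (adjusted p = 1.50e-07) rests on 4 asynchronous counts and has no firm size.

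PRM2, PRM6 and PRM3 were as close to 0 without pheromone. PRM2, a pheromone-regulated membrane protein, stood at 876, 602 and 646 CPM in alpha factor and had 2, 3 and 4 counts in asynchronous cells, a fitted change of 9.69 ± 0.66 (adjusted p = 8.73e-07). PRM6, which acts in potassium entry, had 1235, 1496 and 879 counts in alpha factor against 1, 0 and 2 in asynchronous cells. From these sums its CPM ratio was 1384, with a 95% exact interval of 473 to 6712 that covers counting error only. PRM3, a nuclear envelope protein of nuclear fusion, had 1143, 1671 and 994 counts in alpha factor against 1, 0 and 1 in asynchronous cells, a ratio of 2189 (606 to 18084). KAR4 was the opposite case, with 601, 566 and 707 CPM in alpha factor against 20.9, 32.2 and 38.5 CPM in asynchronous cells, a change of 4.40 ± 0.30 (adjusted p = 8.68e-07).

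The split was also present without the spike-in and against other groups of libraries. In the unspiked libraries all 10 were called higher in alpha factor at T0 (4 libraries) than in asynchronous cells (2 libraries), where 12.5% of genes were called higher, and the changes ran from 3.52 ± 0.48 for AGA2 to 10.13 ± 0.92 for FIG1 (edgeR). All 10 were also called higher than in nocodazole at T0 (4 libraries, 11.7% of genes called higher), from 3.43 ± 0.36 for AGA2 to 9.67 ± 0.63 for FIG1. Both states are arrested, nocodazole in mitosis and alpha factor in G1, and the part of the arrest was not tested. Against the 2 alpha factor libraries labelled t0', all 10 were again higher (14.8% of genes called higher), from 4.39 ± 0.26 for KAR4 to 11.12 ± 0.98 for FIG1. The t0' libraries held 0.0135% and 0.0130% of their counts in the 10 genes, within the range of the asynchronous, nocodazole and cycloheximide libraries. Their labels list the same alpha factor treatment, so whether they were without pheromone is not known. These 3 comparisons share the 4 alpha factor libraries.

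**Figure D2:**
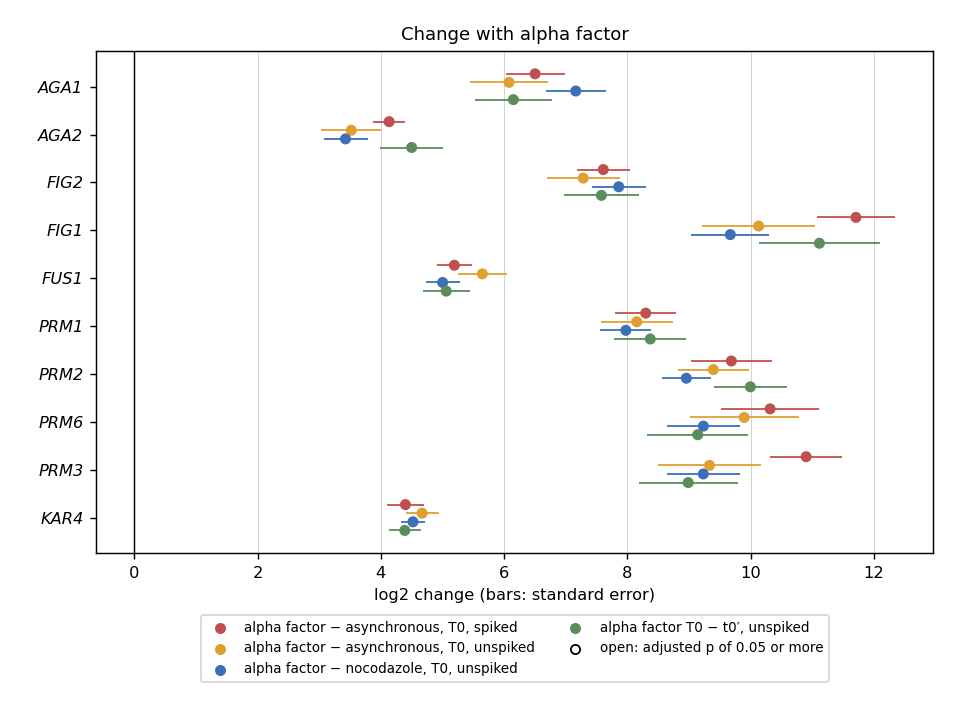
Points give each gene's log2 change with alpha factor in 4 comparisons and bars its standard error. AGA2, KAR4 and FUS1 have the smaller changes (AGA2 4.14 and KAR4 4.40 in the spiked libraries) and FIG1, PRM2, PRM6 and PRM3 the larger ones, and all points are filled, that is, called.

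Other genes of the pathway had smaller median changes. Of 21 genes of pheromone production, sensing and signalling, 13 were called higher in alpha factor than in asynchronous cells at T0 in the spiked libraries and 0 lower, with a median log2 change of 1.22. The largest changes among them were those of the a-factor precursor MFA1 (3.70 ± 0.25), the alpha factor protease BAR1 (3.01 ± 0.38), the kinase FUS3 (2.85 ± 0.20) and the signalling brake SST2 (2.46 ± 0.29). Of 21 other genes of projection growth, fusion and nuclear fusion, 14 were called higher and 1 lower, with a median of 2.16. Here ASG7 (7.32 ± 0.34), an a-specific membrane protein, FUS2 (5.71 ± 0.32), which acts in cell fusion, PRM8 (5.30 ± 0.41), a pheromone-regulated membrane protein, and AFR1 (5.01 ± 0.36), which acts in projection shape, changed as much as several of the 10.

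Markers of the cell cycle differed with the pheromone as well. In alpha factor 6 of 8 genes of the G1/S transition and 7 of 8 of G2/M were called lower, and 0 higher, where 4.23% of all genes were called lower. Summed over the list, G1/S genes stood at 209, 385 and 225 CPM in alpha factor against 1104, 1238 and 1256 CPM in asynchronous cells at T0, and the part of the arrest in the levels of the 10 genes was not tested. The 5 markers of alpha cells summed to 65.3, 72.3 and 52.3 CPM in alpha factor against 39.3, 48.3 and 40.01 CPM in asynchronous cells, most of it from SAG1, the agglutinin of alpha cells. Of 3 that could be tested 0 were called, all 3 with a fitted change above 0 and an unadjusted p under 0.05 in edgeR. MF(ALPHA)1, the pheromone gene of alpha cells, had 0, 19 and 0 counts in alpha factor against 0, 1 and 0 in asynchronous cells. Their part in the result was not tested.

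No member was called between nocodazole and asynchronous cells at T0. There 0 of the 10 were called by edgeR, 0 had an unadjusted p under 0.05 and 0 were called by DESeq2, where 2.80% of genes were called. The fitted changes ran from -1.08 ± 0.52 for AGA1 to 0.66 ± 1.40 for PRM6, whose SE shows how little can be said of the genes near 0. Between the longer and the shorter nocodazole treatment 0 of the 10 were called by edgeR and by DESeq2, with 1 at an unadjusted p under 0.05 and 3.38% of genes called. Cycloheximide at 0.1 gave 0 calls against asynchronous cells by edgeR, 2 at an unadjusted p under 0.05 and 1 by DESeq2, where 0.175% of genes were called by edgeR. That 1 was FUS1, at 29.96 and 32.3 CPM in cycloheximide against 15.7 and 10.7 CPM in asynchronous cells (1.23 ± 0.37, adjusted p = 0.140).

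One library outside the alpha factor state stood apart. The nocodazole library labelled t0' in the salt series held 66 FIG1 counts, 156 of PRM1, 38 of PRM2, 24 of PRM3 and 20 of PRM6. It was the highest of the 44 libraries beside the 22 of alpha factor for each of these 5 genes. Nocodazole at T0 was called lower than t0' for FIG1 (-2.87 ± 0.72, adjusted p = 0.0321), PRM1 (-1.66 ± 0.40, adjusted p = 0.0266) and PRM2 (-1.89 ± 0.49, adjusted p = 0.0401), where 1.94% of genes were called lower. Without that library 0 of the 10 were called by edgeR and the changes were -1.22, -0.65 and -0.24. All 3 calls were also lost without replicate 1 or replicate 2 of nocodazole at T0 in the salt series, and those of FIG1 and PRM2 without replicate 2 in the heat series. The filter on low counts also took in the alpha factor libraries, where these 3 genes are high.

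Salt was read at T30 against T0. In asynchronous cells of the spiked set AGA2 was the 1 member called, while 41.8% of all genes were. It stood at 8.22, 14.8 and 15.4 CPM at T30 against 42.1, 41.5 and 41.96 CPM at T0. The groups did not overlap, and the log2 change was -1.87 ± 0.27 (adjusted p = 0.000131). It was called in each alternative tried, with -1.29 (adjusted p = 0.0441) on the S. pombe scale.

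PRM1 was higher at T30 in asynchronous cells, at 15.6, 15.03 and 17.4 CPM at T30 against 9.604, 5.302 and 4.39 CPM at T0. The groups did not overlap, but the change of 1.12 ± 0.45 (adjusted p = 0.0616) missed the threshold. With replicate number as a block PRM1 was called (1.14, adjusted p = 0.00579), for 2 members in place of 1, where 59.5% of genes were called. On the S. pombe scale, which shifts the median of all genes to 0.61, PRM1 was called at 1.74 (adjusted p = 0.00328), where 24.5% of genes were. With both, AGA1, FIG2, PRM2 and KAR4 were called higher as well, for 6 members in all, where 50.4% of genes were called. Without them FUS1 (0.09 ± 0.26), AGA1 (0.34 ± 0.42) and KAR4 (0.26 ± 0.28) were near 0.

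Without pheromone, AGA2 was lower after salt in other states too. In nocodazole AGA2 stood at 7.35, 15.9 and 19.4 CPM at T30 (no dose label, 0.5N and 0.7N) against 31.9 and 50.4 CPM at T0. Its change of -1.58 ± 0.41 (adjusted p = 0.00764) was the 1 call among the 10, where 31.6% of genes were called, and was lost without replicate 2 at T0 (-1.19, adjusted p = 0.110). In cycloheximide at 0.1 AGA2 stood at 15.5 and 19.6 CPM at T30 against 40.1 and 52.6 CPM at T0 (-1.49 ± 0.45, adjusted p = 0.0170, 33.7% of genes called). The groups did not overlap in either state, but the cycloheximide call was lost without replicate 2 at T0 or either library at T30 (adjusted p = 0.0762 to 0.0853).

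The single libraries and the longer nocodazole treatment had the same order. In the spiked set AGA2 stood at 16.99 CPM at T30 against 59.3 CPM at T0 in cycloheximide at 0.1, and at 14.02 CPM at T30 against 89.6 CPM at T0 in cycloheximide at 0.2. In unspiked libraries it stood at 21.4 CPM at T30 against 70.4 CPM at T0 in cycloheximide at 0.2, and at 21.2 CPM at T30 against 49.8 CPM at T0 in asynchronous cells. In the longer nocodazole treatment AGA2 stood at 24.2 and 23.6 CPM at T30 against 57.3 and 58.7 CPM at T0, a change that was not called (-1.12 ± 0.45, adjusted p = 0.0742). All of these pairs were lower at T30.

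In both nocodazole treatments AGA1 was higher in each T30 salt library than in any T0 library of that treatment, without a call in edgeR. In nocodazole AGA1 stood at 17.5, 14.8 and 14.1 CPM at T30 against 3.38 and 9.72 CPM at T0 (1.22 ± 0.50, adjusted p = 0.0761), and DESeq2 called it (1.25, adjusted p = 0.0264). In the longer treatment it stood at 44.3 and 29.6 CPM at T30 against 21.3 and 14.1 CPM at T0 (1.25 ± 0.48, adjusted p = 0.0611), and DESeq2 again called it (1.33, adjusted p = 0.0201). The T0 values in nocodazole rest on 14 and 37 AGA1 counts. Without 1 library the changes ran from 0.64 to 2.18 in nocodazole and from 0.69 to 1.67 in the longer treatment, with an edgeR call at the upper end of each (without replicate 2 at T0 and without replicate 2 at T30 of the longer treatment).

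The edgeR calls of FIG2 and PRM6 after salt without pheromone were lost without single libraries. In the longer nocodazole treatment FIG2 was called, at 73.7 and 64.9 CPM at T30 against 38.4 and 27.5 CPM at T0 (1.24 ± 0.37, adjusted p = 0.0182, 28.8% of genes called). It was lost without replicate 1 at T30 (0.92) or replicate 2 at T0 (1.004). In cycloheximide at 0.1 PRM6 had 0 and 1 counts at T30 against 1 and 10 at T0. The filter on low counts also took in the alpha factor libraries, where PRM6 is high. PRM6 was called lower (-3.25 ± 1.15, adjusted p = 0.0391), but on so few counts the change has no firm size. Without replicate 2 at T0 it was -1.37 (adjusted p = 0.612), and it was not called without either T30 library or with DESeq2 (-3.58, adjusted p = 0.0531).

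In alpha factor cells the 10 genes stayed high after salt, with a lower sum. They took 0.856%, 0.462% and 0.962% of counts at T30 against 1.28%, 1.17% and 1.57% at T0. After salt all 10 were still called higher in alpha factor than in asynchronous cells (median log2 change 6.202 against -0.02 over all genes, 7.49% of genes called higher, and 0.874% on the S. pombe scale), from 3.64 ± 0.29 for KAR4 to 9.51 ± 0.58 for FIG1. Between T30 and T0 in alpha factor all 10 fitted changes were below 0, with a median of -1.09 against 0.00 over all genes. Called lower were AGA2, FIG1, PRM2 and PRM3, where 3.62% of genes were called lower.

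The 4 genes called lower had no T30 library that reached a T0 library, and neither had PRM6 and FIG2, which edgeR did not call. The share of all genes with such a gap was not computed. PRM3 stood at 176, 107 and 229.9 CPM at T30 against 391, 345 and 536 CPM at T0 (-1.39 ± 0.31, adjusted p = 0.0160). AGA2 stood at 362, 267 and 367 CPM at T30 against 549.9, 828 and 794 CPM at T0 (-1.21 ± 0.23, adjusted p = 0.00693). FIG1 stood at 809, 332 and 497 CPM at T30 against 1655, 1039.6 and 1254 CPM at T0 (-1.33 ± 0.35, adjusted p = 0.0349). PRM2 stood at 399, 109.7 and 279.5 CPM at T30 against 876, 602 and 646 CPM at T0 (-1.49 ± 0.41, adjusted p = 0.0398). PRM6 had the lowest fitted change and just missed, at 167, 54.98 and 216 CPM at T30 against 422, 309 and 474 CPM at T0 (-1.54 ± 0.45, adjusted p = 0.0505). DESeq2 also called PRM6 (-1.53, adjusted p = 0.0129) and FIG2 (-0.98, adjusted p = 0.0269) lower. In all 10 genes replicate 2 had the largest drop of the 3 replicates.

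FUS1, AGA1 and KAR4 had the fitted changes nearest to 0, and none of them was called. FUS1 stood at 565, 395 and 686 CPM at T30 against 692, 641 and 787 CPM at T0, so that the groups overlapped (-0.45 ± 0.23, adjusted p = 0.257). AGA1 was fitted at -0.49 ± 0.37 (adjusted p = 0.470) and KAR4 at -0.50 ± 0.25 (adjusted p = 0.260). FIG2 (-0.98 ± 0.32, adjusted p = 0.0784) and PRM1 (-0.73 ± 0.35, adjusted p = 0.225) lay between.

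How many of the 10 passed after salt in alpha factor depended on the fit. With replicate number as a block 8 were called lower, all but AGA1 and KAR4, where 15.9% of genes were. On the S. pombe scale, where the median of all genes shifts to 0.52, 0 were called by edgeR and 0.0343% of genes were called lower. The 4 changes were then -0.98 for FIG1, -0.85 for AGA2, -1.18 for PRM2 and -0.96 for PRM3. With the block on that scale FIG1, PRM2, PRM6 and PRM3 were called lower, and 0.874% of genes.

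One library weighed on the alpha factor result. Replicate 2 at T30 was the lowest of its group in all 10 genes. In that library the G1/S genes summed to 1952 CPM, against 189 and 404 CPM in the other T30 libraries and 209 to 385 CPM at T0. Over all replicates 4 of the 8 G1/S genes were called higher with salt in alpha factor, where 5.47% of all genes were. Their part in the result was not tested. Without replicate 2 at T30 AGA2 (-1.03) and PRM3 (-1.11) were called, and FIG1 (-1.03) and PRM2 (-1.08) were not. FIG1 and PRM2 also lost the call without T30 replicate 3 or any 1 T0 library, and PRM3 without T0 replicate 3 (-1.24, adjusted p = 0.0742).

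The change with salt differed between alpha factor and asynchronous cells in FIG2. In alpha factor FIG2 stood at 2740.2, 1461 and 3438 CPM at T30 against 4045, 4305 and 5944 CPM at T0. In asynchronous cells it stood at 28.4, 55.8 and 46.9 CPM at T30 against 17.5, 29.99 and 26.8 CPM at T0. All 3 replicates were lower at T30 in alpha factor and all 3 higher in asynchronous cells. The difference of these changes was -1.65 ± 0.47 (adjusted p = 0.0483), with 8.79% of genes called. It was lost with no filter (-1.67, adjusted p = 0.0513), with RLE size factors (-1.62, adjusted p = 0.0502), on the S. pombe scale (-1.82, adjusted p = 0.263, 1.17% of genes called) and without any 1 of 9 of the 12 libraries, with values of -1.83 to -1.35. With replicate number as a block PRM1 (-1.97, adjusted p = 0.00112) and PRM2 (-2.77, adjusted p = 0.0238) differed too, for 3 members in place of 1, where 31.3% of genes were called, and the count was also 3 with the block on the S. pombe scale, where 9.08% were. AGA2, called lower after salt in both states, differed by 0.66 ± 0.35 (adjusted p = 0.269).

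**Figure D3:**
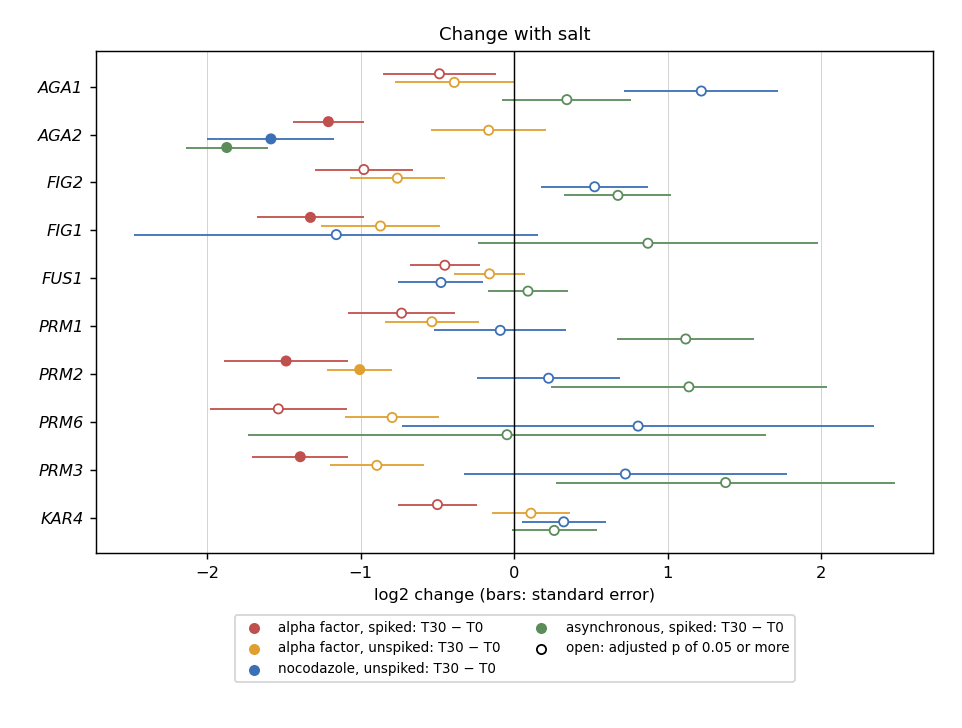
Points give each gene's log2 change with salt, T30 minus T0, in 4 sets of libraries, with standard errors as bars and open points for changes that were not called. In spiked alpha factor cells all 10 points lie below 0, while in spiked asynchronous cells AGA2 (-1.87) is called below 0 and PRM1 lies at 1.12.

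In the other genes of the pathway salt gave calls in both directions. In asynchronous cells 2 of the 21 signalling genes were called higher and 9 lower (median -0.49), and 6 of the 21 other mating genes higher and 2 lower (median 0.03), where 22.2% of all genes were called higher and 19.6% lower. AFR1 (2.16 ± 0.33), PRM8 (3.08 ± 0.38) and FUS2 (1.42 ± 0.29) rose there, while ASG7 stood at 0.41 ± 0.32. In alpha factor, where 5.47% of all genes were called higher and 3.62% lower, 0 signalling genes were called higher and 3 lower (median -0.23), and 1 other mating gene higher and 6 lower (median -0.46). Those 6 include ASG7 (-1.44 ± 0.25) and FUS2 (-1.14 ± 0.26). These medians stand beside 0.05 in asynchronous cells and 0.00 in alpha factor over all genes.

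In the unspiked alpha factor libraries fewer members were called with salt. PRM2 was the 1 gene called, where 5.86% of all genes were. It stood at 511, 542.6 and 324 CPM at T30 (no dose label, 0.5N and 0.7N) against 949 and 798 CPM at T0 (-1.01 ± 0.21, adjusted p = 0.00985), and was lost without replicate 1 at T0 (-0.84, adjusted p = 0.185). AGA2 overlapped, at 462, 971 and 334.9 CPM at T30 in the same order against 587 and 679.7 CPM at T0 (-0.17 ± 0.37, adjusted p = 0.865). In all 10 genes the 0.7N library was lower than the 0.5N one, with 1 library for each dose and so no replicate check. The share of all genes in that order was not computed, so this cannot be read as particular to the 10. The changes with salt in alpha factor and nocodazole differed in 0 of the 10 by edgeR and by DESeq2, with 4 at an unadjusted p under 0.05 and 2.36% of genes called.

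Heat was read at T10 (no temperature label, 33c and 37c) against T0. In alpha factor 0 of the 10 were called by edgeR or DESeq2, 2 had an unadjusted p under 0.05, and 15.3% of all genes were called. The lowest change was that of FIG1 (-0.98 ± 0.40, adjusted p = 0.129). PRM6 came nearest to a call, at 235, 417 and 218 CPM at T10 against 753 and 397 CPM at T0 (-0.93 ± 0.30, adjusted p = 0.0636), and the groups overlapped through the 33c library. It was called without replicate 2 at T0 (-1.28) and without the 33c library (-1.25). The 33c library was above the 37c one for each of the 10 genes, again with 1 library each. The share of all genes in this order was not computed either.

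In nocodazole 3 of the 10 were called lower with heat, where 16.8% of genes were called lower. AGA1 stood at 3.39, 4.72 and 2.35 CPM at T10 against 16.3 and 8.85 CPM at T0 (-1.74 ± 0.34, adjusted p = 0.00325). PRM1 stood at 0.847, 6.79 and 2.82 CPM at T10 against 15.3 and 13.6 CPM at T0 (-1.85 ± 0.49, adjusted p = 0.0154). AGA2 stood at 5.51, 21.3 and 12.5 CPM at T10 against 26.4 and 63.3 CPM at T0 (-1.67 ± 0.58, adjusted p = 0.0490). No T10 library reached a T0 library in these 3 genes, and the share of all genes with such a gap was not computed. AGA1 was also called without any 1 library. AGA2 and PRM1 were not called without the 37c library, AGA2 also not without replicate 2 at T0 (-0.88) or the T10 library with no label, and PRM1 also not without replicate 1 at T0. Heat in alpha factor and in nocodazole differed in 0 members by edgeR and 1 by DESeq2, with 3 at an unadjusted p under 0.05 and 1.37% of genes called.

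Replicate 1 of alpha factor was followed over time with 1 library at each time, so these values have no replicate check. AGA2 ended above its T0 level after both stresses. After salt it stood at 587, 271, 462, 1094 and 1476 CPM at T0, T15, T30, T45 and T60, and after heat at 188, 224, 675, 938 and 915 CPM at T0, T10, T20, T30 and T40. It ended at 251% of T0 after salt and at 488% after heat, where its T0 library was the lowest of the 22 alpha factor libraries for this gene.

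The other 9 genes ended under their level at T0 after salt. At T60 they stood between 42.9% of T0 for PRM2 and 79.9% for KAR4. PRM2 stood at 949, 715, 511, 469 and 407 CPM at T0 to T60, lower at each later time, and PRM3 at 554, 459, 342, 251 and 262 CPM. KAR4 and FUS1 were above T0 at T15 and T30, with KAR4 at 707, 762, 919.8, 586 and 565 CPM.

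After heat several were low at T10 and higher later. PRM6 stood at 753, 235, 335.4, 526.4 and 514 CPM at T0, T10, T20, T30 and T40, and PRM3 at 747, 331, 476, 665 and 772 CPM. FIG1 stood at 1036, 557, 538, 721 and 1064 CPM, at 103% of T0 at T40. The T0 library of this course was the highest of the 22 alpha factor libraries for PRM6, KAR4 and FUS1. PRM6 stood at 753 and 397 CPM in the heat libraries at T0, the first of them being that of the course. PRM1 was at or above T0 at every time, with 2299, 2320.2, 3049, 3290.0 and 3071 CPM.

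**Figure D4:**
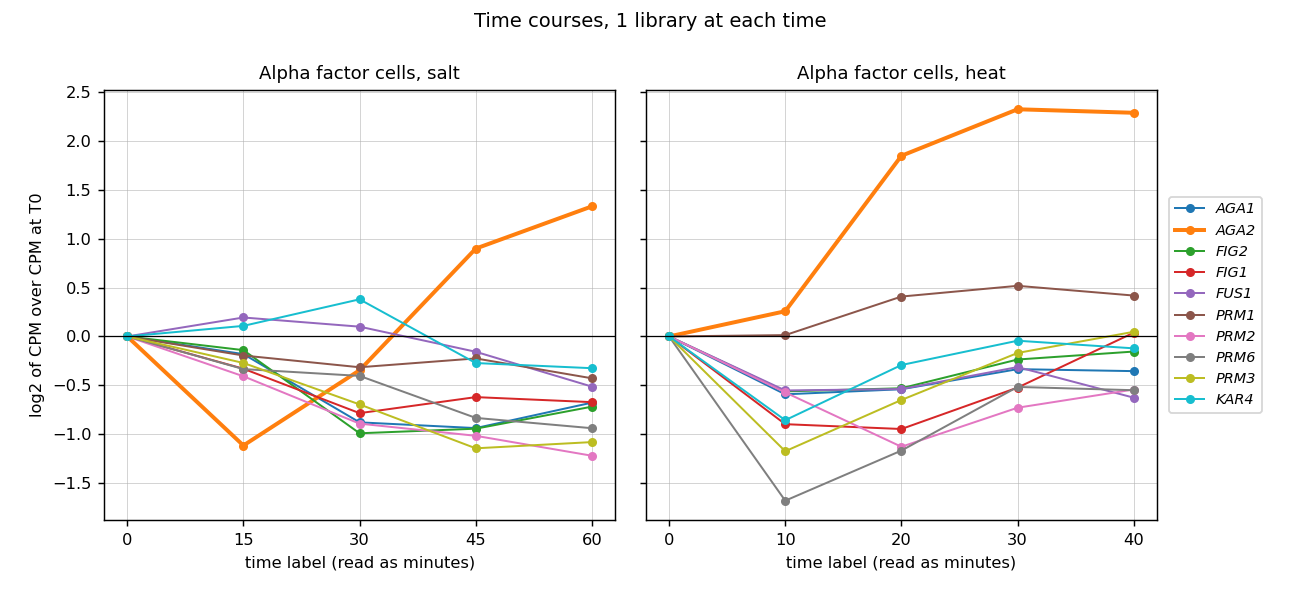
Lines give the log2 of CPM over CPM at T0 in alpha factor cells after salt and after heat, with 1 library at each time. AGA2 (thick line) ends at 251% and 488% of T0, the other 9 genes end below T0 after salt, and after heat PRM1 ends at 134% of T0 with FIG1 and PRM3 at 103% and 103%.

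In nocodazole AGA2 stayed under T0, at 31.9, 15.1, 7.35, 11.4 and 14.6 CPM over the salt times and 26.4, 5.51, 13.1, 16.2 and 22.01 CPM over the heat times. FUS1 in nocodazole stood at 12.1, 32.03, 10.3, 2.84 and 2.55 CPM over the salt times, its last values resting on 12 and 7 counts. Heat in asynchronous cells has 1 library at T10, with AGA2 at 15.9 CPM at T10 against 32.7 CPM at T0 and AGA1 at 2.81 CPM at T10 against 8.69 CPM at T0.

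Polysome gradients separate RNAs by how many ribosomes they carry. Fractions labelled RNP, 40S, 60S and 80S hold the lighter RNAs, and those labelled 2R to 6R are taken here as polysomes. There were 2 gradients of asynchronous cells at T30, 2 at T0, and 1 of alpha factor cells at T0, and counts were scaled to those of added S. pombe RNA. Of the 10 genes 6 had at least 10 CPM on average in the 4 asynchronous inputs, and FIG1, PRM2, PRM6 and PRM3 did not. Of the 6, 0 were called for a change with salt in the log2 ratio of polysome to lighter fractions (limma), 3 had an unadjusted p under 0.05, and 2.47% of the 5053 genes tested were called. DESeq2 was not run on this ratio.

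AGA2 was the 1 gene of the 6 with a fitted change below 0. In AGA2 7.25% and 7.61% of scaled counts were in polysome fractions at T30, against 19.5% and 14.1% at T0, and 80.9% and 73.4% were in the RNP fraction at T30, against 55.6% and 55.02% at T0. The change in the log2 ratio was -1.30 ± 0.49 (limma adjusted p = 0.170) while the median gene shifted by 0.36. Among all genes tested AGA2 stood at percentiles 0.811 and 1.84 of the ratio at T30 against 33.1 and 26.7 at T0. Its T30 values rest on 383 and 202 counts over the fractions. Without the second T30 gradient the change was -1.34. That fit has 1 gradient at T30, which is assumed to vary like the 2 at T0.

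PRM1 had the highest fitted change of the 6, with 28.2% and 24.8% in polysomes at T30 against 11.2% and 10.49% at T0, a change of 1.56 ± 0.49 (limma adjusted p = 0.0581). KAR4 followed at 49.9% and 33.1% at T30 against 30.7% and 17.7% at T0 (1.19 ± 0.49, limma adjusted p = 0.235). Neither gene had a T30 gradient below a T0 one. Without the second T30 gradient the changes were 1.68 and 1.69. With fractions scaled to S. cerevisiae totals FUS1, AGA1, PRM1 and KAR4 were called higher (0.73 to 1.47). The share of all genes called with that scaling is not given here, so this cannot be read as particular to these genes.

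The alpha factor gradient gives all 10 genes on 7191 to 164186 counts each, but is a single one. FIG2 had 51.5% of its scaled counts in polysomes, AGA1 45.5%, KAR4 42.0%, FIG1 39.1%, PRM1 38.2%, PRM6 37.7%, FUS1 35.1%, PRM3 33.0%, PRM2 29.7% and AGA2 26.4%. AGA2 also had the largest RNP share of the 10, at 61.4%, as it did among the 6 genes in each asynchronous gradient. Each of the 6 had a higher polysome share in it than in either asynchronous gradient at T0. The median log2 ratio of all genes was -0.74 in the alpha factor gradient against -1.61 and -1.996 in asynchronous cells at T0.

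**Figure D5:**
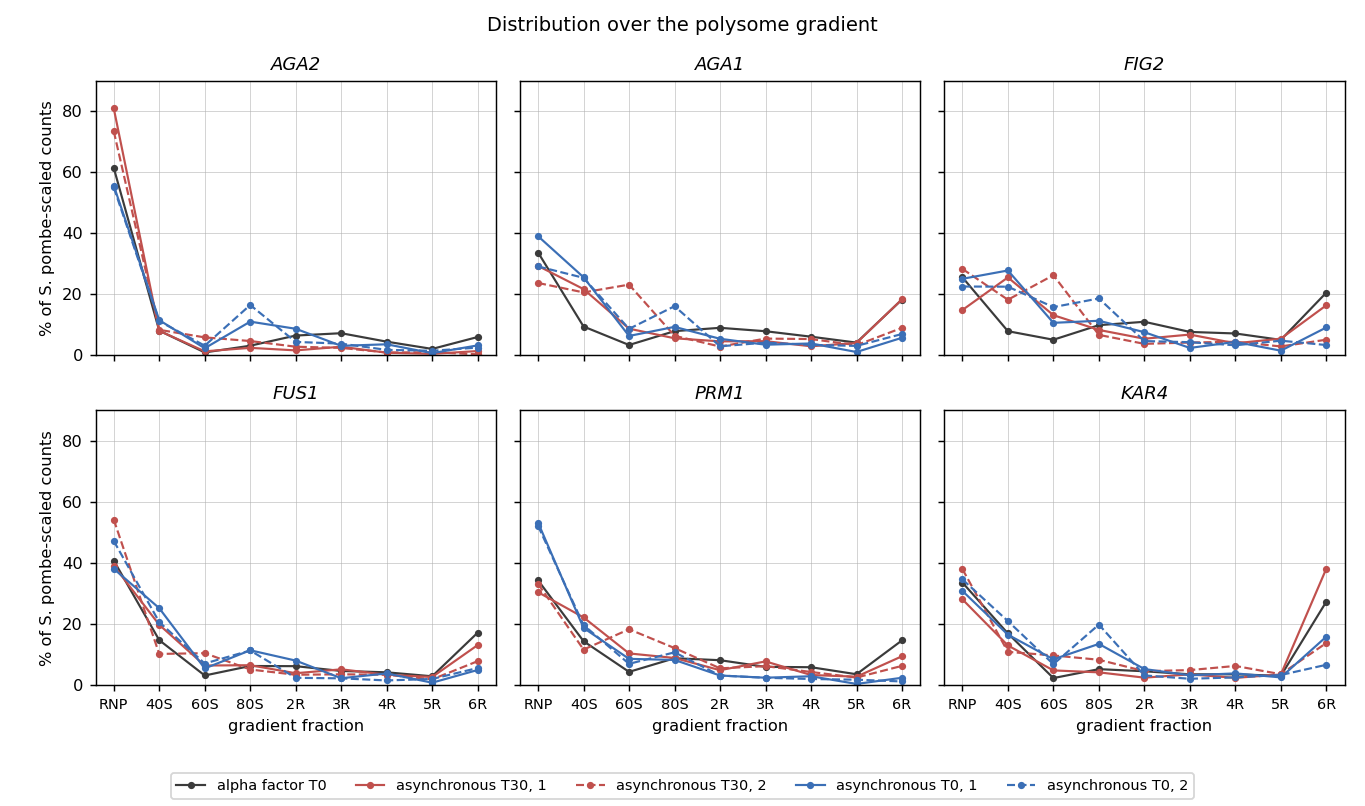
Lines give the percent of S. pombe-scaled counts in each fraction of 5 gradients for the 6 genes with enough asynchronous counts, with replicate gradients as solid and dashed lines. AGA2 has 80.9% and 73.4% in the RNP fraction after salt against 55.6% and 55.0% at T0, while PRM1 has less there after salt than at T0.

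Among themselves the 10 genes varied together in part. Over the 22 alpha factor libraries, which share states, series and times, the log2 CPM of each gene was correlated with the mean of the other 9 as a description. Pearson's r was 0.92 for PRM6, 0.84 for PRM2, 0.83 for FIG2, 0.79 for PRM3, 0.76 for FIG1, 0.72 for PRM1, 0.69 for KAR4 and 0.60 for FUS1. The subunits of the agglutinin were lowest, with 0.34 for AGA1 and 0.25 for AGA2. The highest alpha factor CPM over the lowest ran from 2.196 for FUS1 to 13.7 for PRM6, and the T30 library with high G1/S genes was the lowest of the 22 for 8 of the 10, all but AGA1 and AGA2.

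Outside the set, the 10 genes most like the mean of the members over all 66 whole-cell libraries were YCL076W, YCL074W, ASG7, KAR5, PRM4, YDR124W, YNL042W-B, FUS2, YGR109W-B and PMU1, with r from 0.97 to 0.99. These libraries fall into 2 clusters, the 22 alpha factor libraries and all others, those labelled t0' among them. Within the 22 alpha factor libraries r ran from 0.17 for YGR109W-B to 0.87 for ASG7, with 0.84 for KAR5, which acts in nuclear fusion, and 0.83 for FUS2.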

How the data were processed

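Counts per ORF were deposited by the authors as raw, unnormalized read counts in 3 tables (whole-cell, whole-cell with S. pombe cells, polysome gradients). Per the submitters' processing notes, Trimmomatic 0.32, Bowtie2 and HTSeq 0.6.1 were used. Neither the genome build nor the use of strand in counting is stated in the sources at hand. Per the labels, RNA was depleted of ribosomal RNA. Columns were matched to samples by title, and 70 columns of other samples were not used. Emptied lines (8, 4 and 4) were dropped, and ORF names came from RefSeq. No pair of replicates agreed within sampling noise.

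CPM divides by S. cerevisiae ORF counts. Tests used edgeR 4.0.16 (TMM, filterByExpr, quasi-likelihood F test, two-sided, Benjamini-Hochberg over all genes tested, threshold 0.05) in R 4.3.3. The SE is the log2 change over the square root of F. Libraries of 1 set shared 1 estimate of spread: all 16 spiked, 19 unspiked at T0 or t0', 22 unspiked salt at T0 and T30, and 12 heat at T0 and T10. Libraries with different labelled doses or temperatures were pooled. The gradient ratio (2R to 6R over RNP to 80S, S. pombe-scaled, offset 1 read, minimum 10 CPM) was tested with limma 3.58.1. DESeq2 1.42.0 and the relative log expression (RLE) size factors were alternatives. All fits were checked on simulated counts.

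In the spiked set, libraries with the same replicate number deviated together (r from 0.31 to 0.71 over 18 pairs of libraries). For different numbers r ran from -0.65 to 0.18, but deviations within a group sum to 0, so these values are no separate comparison. The replicate numbers were taken to pair the libraries, and this pairing comes from the data. The main fits left the pairing out, so their SEs and p-values ignore it, and the replicate block was an alternative. With the block more members were called in each salt comparison of the spiked set. Counting intervals are exact at 95%.

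The members and lists were chosen with earlier results of these data known. All 10 members are named, and from each list up to 4 called genes with the largest change in alpha factor against asynchronous cells. Likeness used log2 CPM (prior count 2, mean of at least 10 CPM). The correlations within alpha factor libraries and the S. pombe scale with the block were added after seeing the data. Sequences were not used here.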

Additional observations from a re-analysis of the deposited data

Results flagged for a closer look

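For FIG2 the change with salt in alpha factor differed from that in asynchronous cells by -1.65 on the log2 scale in a test of the difference itself (edgeR adjusted p = 0.0483, lower in 3 of 3 replicates of alpha factor and higher in 3 of 3 of asynchronous cells). It was the 1 member called, where 8.79% of all genes were. The call was lost with RLE size factors, with no filter and on the S. pombe scale. It was also lost with the asynchronous and alpha factor libraries alone and without most single libraries. KAR4 stood at 1145 CPM in replicate 1 of alpha factor at T0 in the heat series, far from the 669 to 728 CPM of the other 3 unspiked alpha factor libraries at T0. PRM2 stood at 2.93 CPM, or 9 counts, in replicate 1 of nocodazole at T0 in the heat series, against 1.31 to 1.59 CPM in the other 3. These 2 came from 20 such groups of 4 looked at. The groups are the 10 genes in the same 2 sets of libraries, so they are not independent. How many chance alone would give was not tested.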

How the results depend on the processing

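Counts below are of members called. The share of all genes called moved with the setting too. For salt in alpha factor, spiked, 3.62% were called lower as reported and 15.9% with the replicate block. That share is not given for every setting, so the counts cannot be read as particular to the members. All 5 alpha factor comparisons (spiked before and after salt, unspiked against asynchronous, nocodazole and t0') stayed at 10 in every alternative tried. For salt in asynchronous cells, spiked, the count was 1 as reported, 2 with the replicate block, on the S. pombe scale and with DESeq2, 6 with the block on the S. pombe scale, and 1 to 2 without any 1 library. For salt in alpha factor, spiked, it was 4 as reported, 8 with the replicate block, 6 with DESeq2, 5 with the asynchronous and alpha factor libraries alone, 0 on the S. pombe scale, and 1 to 5 without any 1 library. For the difference of these changes it was 1 as reported, 0 with RLE size factors, with no filter, on the S. pombe scale and with the asynchronous and alpha factor libraries alone, 3 with the block on either scale and with DESeq2, and 0 to 3 without any 1 library.

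In the unspiked set DESeq2 called 1 member for cycloheximide against asynchronous cells (0 in edgeR), 2 for salt in alpha factor, in nocodazole and in 3.5 h nocodazole (1 each in edgeR), 1 for salt in cycloheximide (2 in edgeR) and 1 for heat in alpha factor against heat in nocodazole (PRM1, 1.76, with 0 in edgeR). Without any 1 library the count ran from 0 to 4 for nocodazole T0 against t0' (3 as reported), 0 to 2 for salt in alpha factor, 0 to 2 for salt in 3.5 h nocodazole, 0 to 4 for salt in cycloheximide, 0 to 1 for heat in alpha factor (0 as reported) and 1 to 5 for heat in nocodazole (3 as reported). For the polysome ratio it was 0 as reported, 4 with S. cerevisiae scaling and 3 with the replicate block. Where leaving out a library or gradient left a group with 1, that one is assumed to vary like the other groups. The cause of these differences was not tested.

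Unspiked replicate numbers are not shown to pair libraries (r of the same number -0.20 to 0.78 at T0, -0.44 to 0.65 in salt and -0.51 to 0.80 in heat), nor are those of the gradients with 2 pairs. The block moved 1 unspiked whole-cell count, heat in alpha factor against heat in nocodazole (1 in place of 0, AGA2 at 1.97). It could not be fitted for 3.5 h nocodazole against nocodazole or cycloheximide against asynchronous cells. Over 2308 values of single members, 2196 kept their side of the threshold and 56 lost and 56 gained a call, with 0 called values changing sign. FIG1, PRM2, PRM6 and PRM3 rest on few counts without pheromone, and groups of 2 libraries and single libraries at each dose, temperature and time limit what could be called.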
